A study of Mus musculus with 6 samples.

Results

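This account covers 10 genes that mark mouse embryonic stem (ES) cells: the developmental pluripotency associated genes Dppa2, Dppa3, Dppa4 and Dppa5a, the zinc finger gene Zfp42 (Rex1), and the RNA-binding and signalling genes L1td1, Lin28a, Lin28b, Trim71 and Tcl1. They were chosen by name, and every gene probe on the array that the scanner tables assign to one of them was kept. That gave 15 probes of the 39429 gene probes on the array, and 10 genes of the 20434 genes with a tested probe. Probes of one gene could be compared for 4 genes, since Dppa2, Lin28b and Trim71 have 2 probes each and Dppa4 has 3. RNA from wild type (WT) ES cells and from ES cells with a knockout (KO) of Zscan5b, a gene for a SCAN-domain zinc finger protein, was labelled with Cy3 and read on 1-colour Agilent arrays, with 3 arrays per genotype. Both genotypes grew with leukemia inhibitory factor (LIF) on a feeder layer of mouse embryonic fibroblasts that mitomycin C had stopped from dividing. The design calls the 3 samples of a genotype biological replicates; the labels do not give the strain, the position of the deletion, how it was made or whether the KO samples were separate clones. The comparison asks whether loss of Zscan5b changed the level of these stem cell RNAs.

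Dppa2 and Dppa4 encode SAP-domain proteins that bind chromatin together and help to switch on genes of the 2-cell embryo, and Dppa3 (Stella) protects the maternal genome from loss of methylation after fertilisation and opposes the methylation cofactor Uhrf1 in oocytes. Dppa5a encodes a KH-domain RNA-binding protein, and Zfp42 is a classical marker of the naive pluripotent state. Lin28a and Lin28b bind the precursors of the let-7 microRNAs and stop their maturation; Trim71 is an RNA-binding ubiquitin ligase whose own mRNA is a let-7 target. L1td1 is an RNA-binding protein derived from a LINE-1 retrotransposon, and Tcl1 encodes a coactivator of AKT kinases.

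Each measurement is the brightness of a spot of 60-base DNA, so the probe sequences show what was read. The 3 sequences given here are those of second probes that read through an open frame and lie apart from the brightest probe of the same gene. The second Trim71 probe also does so and is not shown. The 3 sequences are in lower case throughout, since no part of them was singled out.
Dppa2 probe 2: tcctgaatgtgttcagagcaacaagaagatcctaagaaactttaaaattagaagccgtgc
Dppa4 probe 2: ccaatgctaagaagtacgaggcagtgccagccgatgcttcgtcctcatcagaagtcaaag
Lin28b probe 2: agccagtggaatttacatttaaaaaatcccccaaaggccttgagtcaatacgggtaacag
The Dppa2 probe maps to chr16:48317579-48318787 on the plus strand of mm9, the build of the array files, a span of 1209 bases that is longer than the probe itself. The Dppa4 probe lies at chr16:48291368-48291427 (plus strand) and the Lin28b probe at chr10:45140412-45140471 (minus strand). Gene models of that build were not used here, so exon and UTR positions are not given.

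The microRNAs that the Lin28 proteins hold back share a seed, the stretch of bases 2 to 8 that pairs with target mRNAs. Of 10 mature let-7 sequences in the RefSeq table, 9 carry the seed GAGGUAG. The 4 shown, with the seed in capitals, are the founding member, a member with another first base, a member with other bases beyond the seed, and the one with a different seed.
let-7a: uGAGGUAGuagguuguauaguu
let-7d: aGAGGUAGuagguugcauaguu
let-7g: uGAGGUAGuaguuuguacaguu
let-7j: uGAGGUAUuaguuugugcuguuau
None of the 15 probe sequences holds the matching site CTACCTC, so the spots do not read the paired site itself. The microRNAs were not measured on this array.

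Levels are given as log2 of the processed signal relative to the 75th percentile of the same array, which lay between 852 and 1028 signal units. A level of 0 equals that percentile and each step of 1 is a doubling; levels of different probes are not set against each other. Of the gene probes, 26651 gave a signal clearly over background on 3 or more of the 6 arrays and were tested. All 15 probes of the 10 genes passed this filter and were well above background on all 6 arrays, with signals from 42.3 to 287718 and none saturated. All WT arrays lay on one slide and all KO arrays on another, scanned apart, so slide, scan and genotype cannot be told apart. One array, WT2, stood somewhat apart from the other 2 WT arrays. The SD of log2 differences over all tested probes was 0.639 for WT1 and WT2 and 0.572 for WT2 and WT3. It was 0.513 for WT1 and WT3, and 0.331 to 0.399 for pairs of KO arrays. For WT1 and KO1 it was 0.488, so WT1 lay nearer to KO1 than to either WT array. WT2 was the highest or lowest WT array at 75.2% of probes, against 61.3% for WT1 and 63.5% for WT3. Each fold change of the 10 genes is therefore given with and without WT2; for other genes only the values on all 6 arrays are given unless stated. The probe for Zscan5b read -3.66, -4.03 and -3.12 in WT1 to WT3 and -4.47, -5.17 and -5.13 in KO1 to KO3. Its 3 KO values lay below its 3 WT values, with a log2 fold change of -1.32 (SE 0.29, adjusted p = 0.107, limma, n = 3 per group) and of -1.54 without WT2 (adjusted p = 0.0416); whether the probe lies in the deleted part is not known, so it does not check the genotype.

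No probe of the 10 genes was called changed. At a limma p-value below 0.05 after Benjamini-Hochberg adjustment over all tested probes, 0 of 15 were called, against 0.465% of all tested probes. Without adjustment 1 of 15 had a p below 0.05, against 21.9% overall. Fold changes (KO minus WT) were negative at 12 probes and positive at 3, with a median of -0.38 on the log2 scale; over all tested probes the median was -0.01 and 51.4% were negative. Probes of 1 gene are not separate genes. At the brightest probe of each gene, 7 of 10 fold changes were negative, with a median of -0.34, against -0.03 over all genes. By limma 0 of the 10 had an unadjusted p below 0.05, against 21.7% of all genes. At 1 of the 10 KO lay wholly below WT, against 3358 of 20434 genes. The median of the 15 probes was -0.56 without WT2 and -0.20 without WT1 or without WT3. The KO values lay wholly below the WT values at 2 of the 15 probes, 1 of Dppa4 and 1 of Trim71, against 15.4% of all tested probes; 13.6% of all tested probes had KO wholly above WT and 29.0% showed no overlap either way, where the 10 genes had 2 of 15 below and 0 above. Without WT2, 3 probes, of Dppa2, L1td1 and Lin28a, were called lower in KO and 0 higher, where 4.31% of all tested probes were called lower and 5.29% higher. In a bulk sample, a smaller share of cells with an RNA and less of it in each cell cannot be told apart.

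**Figure D1:**
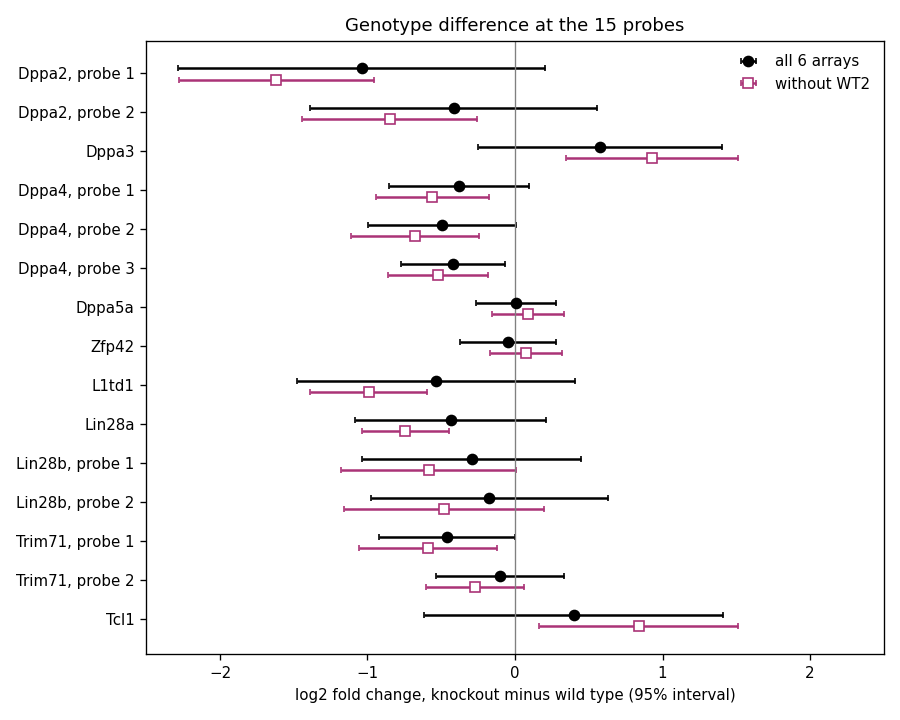
Log2 fold change (KO minus WT, horizontal axis) of each of the 15 probes with its 95% interval; black circles use all 6 arrays and open squares leave out WT2. With all arrays 1 of the 15 intervals, that of Dppa4 probe 3, lies wholly below 0; without WT2 the points of Dppa2, L1td1 and Lin28a lie farther below 0 and those of Dppa3 and Tcl1 farther above it.

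Dppa2 had the most negative fold change of the set, yet its WT arrays were far apart. Probe 1 (A_66_P136844, chr16:48319381-48319440, plus strand) read 2.95, 1.20 and 2.92 in WT1 to WT3 and 1.80, 1.20 and 0.95 in KO1 to KO3. WT1 and WT3 were high, while WT2 lay 1.72 below the nearer of them and among the KO arrays, so the groups overlapped. The difference was not called, at a log2 fold change of -1.04 (SE 0.51, 95% interval -2.28 to 0.20, adjusted p = 0.284), that is 2.06-fold lower in KO. Without WT2 the fold change was -1.62 (SE 0.26, adjusted p = 0.0382), which is 3.07-fold. Without WT1 it was -0.74 (adjusted p = 0.477) and without WT3 -0.76 (adjusted p = 0.525), so the call rested on leaving out WT2. Probe 2, whose sequence is given above, also had WT2 as the lowest WT array, at 0.19, -1.11 and 0.20, with KO arrays at -0.21, -0.86 and -0.90. Its log2 fold change was -0.41 (SE 0.40, adjusted p = 0.554), and -0.85 (adjusted p = 0.0767) without WT2. It was -0.20 without WT1 and -0.19 without WT3. On this probe WT2 was the lowest of the 6 arrays. The probes thus pointed the same way and differed in size by 0.62 on the log2 scale, and only probe 1 was called without WT2.

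Dppa4, whose product pairs with that of Dppa2, is its neighbour on chromosome 16. The RefSeq table lists 0 genes between them, and the nearest probes of the pair are 23173 bases apart in mm9. Probe 1 of Dppa4 (A_66_P101192, chr16:48293216-48293867) read 2.37, 1.95 and 2.60 in the WT arrays and 2.14, 1.82 and 1.82 in the KO arrays. KO1 lay above WT2, and the other KO arrays lay below all WT arrays. Probe 2 (A_55_P2065549) read 2.03, 1.63 and 2.32 against 1.75, 1.40 and 1.35, the same arrangement. At probe 3 (A_55_P2158607, chr16:48294346-48294405) the WT values of -2.14, -2.33 and -1.90 all lay above the KO values of -2.41, -2.68 and -2.54. The log2 fold changes were -0.38 (SE 0.20, adjusted p = 0.303), -0.49 (SE 0.21, adjusted p = 0.233) and -0.42 (SE 0.15, adjusted p = 0.189), so the 3 probes gave much the same size. Without WT2 they were -0.56, -0.68 and -0.52, with adjusted p-values of 0.0739, 0.0665 and 0.0677. Without WT1 they were -0.35, -0.48 and -0.43, and without WT3 -0.23, -0.33 and -0.31. Dppa4 thus spanned less than Dppa2 over the 6 arrays: the distance from lowest to highest was 0.78 at probe 1 of Dppa4 and 2.00 at probe 1 of Dppa2.

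Genes that depend on Dppa2 and Dppa4 or belong to the 2-cell programme were read from a list of 27, of which 23 were on the array and 18 were tested. None was called in either direction by limma, and 1 of the 18 had an unadjusted p below 0.05; 13 fold changes were positive and 5 negative, with a median of 0.41, against -0.03 over all genes with 1 probe each. The list median was 0.24 without WT2 and 0.52 without WT1. The positive fold changes include those of Zscan4a, Zscan4c, Zscan4e and Zscan4f and of Usp17la, Usp17lb, Usp17lc and Usp17ld. Zscan4a and Zscan4c read nearly alike, at -0.08, -3.28 and -2.38 and at -0.08, -3.17 and -2.24 in WT1 to WT3. The sign counts, the median and the list means therefore do not stand for 18 separate genes. Mael, a piRNA pathway gene, had the smallest p, at 1.05, 1.08 and 1.05 in WT and 0.34, 0.38 and -0.03 in KO. These groups did not overlap (log2 fold change -0.83, SE 0.14, adjusted p = 0.0676). Syce1, a synaptonemal complex gene known to need Dppa2 and Dppa4, read 1.54, 0.58 and 1.01 in WT and 0.80, 0.71 and 0.74 in KO, with WT2 lowest (log2 fold change -0.29, adjusted p = 0.485). The heart factor gene Nkx2-5, another such gene, had a log2 fold change of 0.34 (adjusted p = 0.381).

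Dppa3 had a fold change of the opposite sign and varied mostly within WT. Its probe (A_55_P2091496, chr6:122580207-122580266, plus strand) read 1.32, 2.00 and 0.57 in WT1 to WT3 and 1.84, 1.94 and 1.84 in KO1 to KO3. The KO arrays lay within 0.11 of each other, whereas the WT arrays spanned 1.43, with WT2 highest of all 6 and WT3 lowest. The log2 fold change was 0.58 (SE 0.34, 95% interval -0.25 to 1.41, adjusted p = 0.353). It was 0.93 without WT2 (adjusted p = 0.0640) and 0.21 without WT3 (adjusted p = 0.638).

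The 17 genes of DNA methylation and Dppa3 partners held 0 calls by limma, with 4 at an unadjusted p below 0.05 (3 lower, 1 higher); 14 fold changes were negative and 3 positive, with a median of -0.14. Uhrf1, the cofactor that Dppa3 keeps from chromatin in oocytes, had a log2 fold change of -0.28 (SE 0.14, adjusted p = 0.280). Its brightest probe read 5.60, 5.20 and 5.50 in WT and 5.26, 5.13 and 5.06 in KO, so the groups overlapped through WT2. The second Uhrf1 probe had the opposite sign, at 0.084 (adjusted p = 0.791). Dnmt3b, a de novo DNA methyltransferase gene, read 5.62, 4.44 and 6.001 against 4.29, 3.90 and 3.54. At this brightest probe every KO array lay below every WT array and WT2 was the lowest WT array (log2 fold change -1.44, SE 0.42, adjusted p = 0.152). The other Dnmt3b probes gave -1.41 (adjusted p = 0.167) and -1.19 (adjusted p = 0.218), and at the last the groups overlapped through WT2. Ipo5, an importin gene, had the smallest p of the list at a log2 fold change of -0.58 (adjusted p = 0.0818), which its second probe did not share (-0.070, adjusted p = 0.695).

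**Figure D2:**
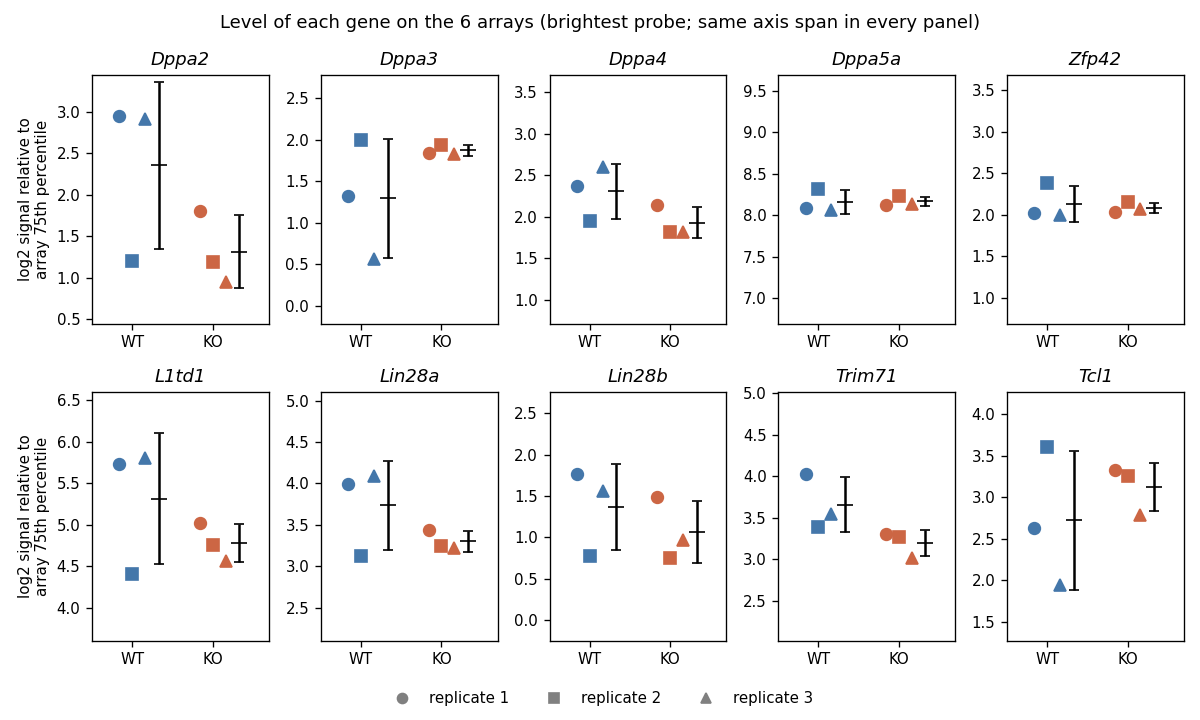
Level of each gene at its brightest probe (log2 signal relative to the array's 75th percentile, vertical axis) on the 3 WT and 3 KO arrays; symbols give the replicate number, and black bars the mean with SD of each genotype. The axes span the same number of log2 units, so the wide WT spread of Dppa2, Dppa3, L1td1 and Tcl1 can be set against the narrow spread of Dppa5a and Zfp42.

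Dppa5a and Zfp42 spanned a narrow range over the 6 arrays. Dppa5a (A_55_P2028171, chr9:78214866-78214925, minus strand) read 8.09, 8.32 and 8.07 in WT and 8.13, 8.23 and 8.14 in KO. The groups overlapped, and the whole span was 0.26. Its log2 fold change was 0.0069 (SE 0.11, adjusted p = 0.976), and the 95% interval from -0.26 to 0.28 bounds a difference in either direction. Zfp42 (A_51_P413376, chr8:44380667-44380726, minus strand) read 2.03, 2.38 and 1.99 in WT and 2.03, 2.15 and 2.07 in KO. Its fold change of -0.048 (SE 0.14, 95% interval -0.38 to 0.28, adjusted p = 0.850) was also near 0. For both genes WT2 was the highest array, and without it the fold changes were 0.088 and 0.076.

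Zfp42 is a known target of the stem cell factor Oct4, which binds octamer motifs. The RefSeq promoter table held windows for 6 of the 10 genes, and the octamer ATTTGCAT, searched on both strands in the 250 bases before the start site, was found in 1 of the 6, Zfp42. The same motif was found in 526 of 32851 such windows, or 1.60%, and a match is a run of letters, not a measured binding site. The window is shown because the Oct4 gene itself was measured beside Zfp42; it lies at chr8:43307010-43307259 on GRCm38.p6 (minus strand), with the octamer in capitals, starting 186 bases before the start site.
Zfp42 promoter: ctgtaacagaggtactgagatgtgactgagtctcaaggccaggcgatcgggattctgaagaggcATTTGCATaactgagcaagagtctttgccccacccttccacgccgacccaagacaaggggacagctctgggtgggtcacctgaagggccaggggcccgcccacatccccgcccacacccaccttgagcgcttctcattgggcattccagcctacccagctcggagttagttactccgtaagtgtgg
Pou5f1, which encodes Oct4, read 2.55, 2.52 and 2.66 in WT and 2.17, 2.14 and 2.0004 in KO. The groups did not overlap, and the log2 fold change was -0.47 (SE 0.10, adjusted p = 0.104). Among the 13 relatives and regulators of Zfp42, 0 were called by limma and 4 had an unadjusted p below 0.05, with 8 fold changes positive, 5 negative and a median of 0.072. Without WT2 that median was -0.12. Pcgf6, a Polycomb subunit gene, had a log2 fold change of -0.36 (adjusted p = 0.146) and Nanog, a core pluripotency factor gene, one of 0.66 (adjusted p = 0.175).

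Lin28a shared with probe 1 of Dppa4 the order WT3, WT1, KO1 at the top but differed in the place of WT2. Its probe (A_55_P2074371, chr4:133559245-133559304, minus strand) read 3.997, 3.12 and 4.09 in WT and 3.44, 3.24 and 3.22 in KO. WT2 was the lowest of all 6 arrays, below the 3 KO arrays, which lay within 0.22 of each other. The log2 fold change was -0.44 (SE 0.27, 95% interval -1.09 to 0.21, adjusted p = 0.366). Without WT2 it was -0.74 (SE 0.12, adjusted p = 0.0365), which is 1.67-fold lower in KO, and the probe was called. It was -0.31 without WT1 (adjusted p = 0.584) and -0.26 without WT3 (adjusted p = 0.650), with no call.

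Lin28b, the paralogue, showed a wider spread in KO. Probe 1 (A_55_P1970905, chr10:45096468-45096527, minus strand) read 1.76, 0.78 and 1.55 in WT and 1.48, 0.76 and 0.97 in KO. WT2 and KO2 were the low arrays, and the groups overlapped. Probe 2, printed above, read -3.26, -4.33 and -3.59 in WT and -3.64, -4.39 and -3.68 in KO, with the same 2 arrays lowest. The log2 fold changes were -0.29 (SE 0.31, adjusted p = 0.584) and -0.17 (SE 0.33, adjusted p = 0.772). Without WT2 they were -0.59 and -0.48, with adjusted p-values of 0.154 and 0.270, so neither probe was called. Without WT1 they were -0.096 and 0.060, and without WT3 -0.20 and -0.11.

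Genes that mature or degrade let-7 were split evenly in sign. Of 22 tested, 0 were called by limma and 3 had an unadjusted p below 0.05; 11 fold changes were positive and 11 negative, with a median of -0.01. The KO values lay wholly below WT at 3 of the 22 genes and wholly above at 4. Over all tested probes the shares were 15.4% and 13.6%. Dis3, a nuclear exosome subunit gene, read 3.12, 2.73 and 3.03 in WT and 2.54, 2.32 and 1.98 in KO without overlap (log2 fold change -0.68, SE 0.18, adjusted p = 0.136). Dis3l2, which degrades let-7 precursors after Lin28 has marked them, had a log2 fold change of 0.11 (adjusted p = 0.746). Its second probe gave 0.45 (adjusted p = 0.155), with every KO array above every WT array. The uridylyl transferases that Lin28a recruits had fold changes of 0.32 for Tut4 and 0.088 for Tut7, with adjusted p-values of 0.246 and 0.753.

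Among 36 let-7 target genes 34 were tested, 0 were called by limma and 8 had an unadjusted p below 0.05. The fold changes were split into 17 positive and 17 negative, and the median was -0.02. The KO values lay wholly below WT at 9 of the 34 and wholly above at 3, where 15.4% and 13.6% of all tested probes did so. Ccnd1, a G1 cyclin gene, read 2.95, 2.88 and 3.49 in WT and 2.54, 2.24 and 2.33 in KO (log2 fold change -0.74, SE 0.19, adjusted p = 0.128). Irs2, an insulin receptor substrate gene, lay the other way, at 0.34, -0.59 and -0.50 in WT and 0.88, 0.55 and 0.92 in KO (log2 fold change 1.04, adjusted p = 0.128). Ccnd2, another G1 cyclin gene, read -0.52, 0.52 and 0.84 in WT and -0.90, -1.05 and -1.26 in KO (log2 fold change -1.35, SE 0.35, adjusted p = 0.130). In each of these 3 genes the groups did not overlap. Hmga2, a chromatin gene long studied as a let-7 target, had a log2 fold change of -1.17 (SE 0.43, adjusted p = 0.203), with WT values of -0.47, 0.09 and 1.28. Igf2bp1, an mRNA-binding protein gene, had one of -0.37 (adjusted p = 0.196), against 0.23 for Igf2bp2 and 0.073 for Igf2bp3. The second Igf2bp2 probe gave -0.044 (adjusted p = 0.788).

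Trim71 gave different sizes at its 2 probes. Probe 1 (A_55_P1962334, chr9:114420415-114420474, minus strand) read 4.03, 3.39 and 3.54 in WT and 3.30, 3.26 and 3.01 in KO. Every KO array lay below every WT array, although WT2 and KO1 were only a small step apart. The log2 fold change was -0.46 (SE 0.19, adjusted p = 0.229), and -0.59 without WT2 (adjusted p = 0.0973). It was -0.27 without WT1, the highest array (adjusted p = 0.336), and -0.52 without WT3 (adjusted p = 0.348). Probe 2 (A_55_P2084348, chr9:114421669-114421728) read -0.79, -1.41 and -1.01 in WT and -1.12, -1.31 and -1.07 in KO. On it WT2 was the lowest array, the groups overlapped, and the log2 fold change was -0.10 (SE 0.18, adjusted p = 0.755), or -0.27 without WT2. The 14 tested partners and mRNA targets of Trim71 included 0 calls by limma and 1 unadjusted p below 0.05; 9 fold changes were positive and 5 negative, with a median of 0.10. Ago2, the Argonaute gene, had a log2 fold change of 0.36 at its brightest probe (adjusted p = 0.233), and its other probes ranged from -0.0080 to 0.14.

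L1td1 followed Lin28a closely over the arrays. Its probe (A_55_P2101526, chr4:98405084-98405143, plus strand) read 5.74, 4.41 and 5.80 in WT and 5.02, 4.75 and 4.57 in KO. WT1 and WT3 were the high arrays, and WT2 lay below all 3 KO arrays. The log2 fold change was -0.54 (SE 0.39, 95% interval -1.48 to 0.41, adjusted p = 0.431). Without WT2 it was -0.99 (SE 0.16, adjusted p = 0.0372), 1.99-fold lower in KO, and the probe was called. It was -0.33 without WT1 (adjusted p = 0.687) and -0.29 without WT3 (adjusted p = 0.733), with no call. Of 9 genes of L1td1 partners and LINE-1 control, 0 were called by limma and 4 had an unadjusted p below 0.05, all lower; 2 fold changes were positive and 7 negative, with a median of -0.13 (-0.20 without WT2, -0.32 without WT3). Tasor and Morc2a, which act with the HUSH complex that silences LINE-1 elements, had log2 fold changes of -0.51 (adjusted p = 0.101) and -0.53 (adjusted p = 0.114). The chromatin remodeller gene Hells had one of -0.51 (adjusted p = 0.143). The second Tasor probe gave -0.16 (adjusted p = 0.610).

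Tcl1 ran opposite to Dppa2 and L1td1 across the WT arrays. Its probe (A_55_P1960342, chr12:106454973-106455032, minus strand) read 2.63, 3.61 and 1.94 in WT and 3.32, 3.25 and 2.79 in KO. WT2 was the highest array and WT3 the lowest, so the WT arrays enclosed the KO arrays. The log2 fold change was 0.40 (SE 0.42, 95% interval -0.62 to 1.41, adjusted p = 0.587). It was 0.84 without WT2 (adjusted p = 0.0997) and 0.00 without WT3 (adjusted p = 0.995).

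The Tcl1 family and AKT pathway list gave 1 call among 23 tested genes, a member of the Tcl1b cluster. Tcl1b2 lies in the same stretch of chromosome 12 as Tcl1, with 4 RefSeq genes between them and 61955 bases between the probes. Its probe A_51_P505907 read -4.05, -3.62 and -3.75 in WT and -5.08, -5.19 and -5.03 in KO. The groups lay far apart, and the log2 fold change was -1.30 (SE 0.14, 95% interval -1.63 to -0.96, adjusted p = 0.0377), 2.46-fold lower in KO. It was -1.205 without WT2 (adjusted p = 0.0302). The call held under 6 of 15 alternatives. Leaving out WT3, KO1, KO2 or KO3 ended it, with adjusted p-values from 0.118 to 0.200, and with normexp background correction the fold change was -0.55 (adjusted p = 0.0917). A second Tcl1b2 probe, with means of -8.05 in WT and -8.00 in KO, was well above background on 0 WT and 0 KO arrays and was not tested. The call thus rests on 1 probe. The Tcl1b genes are close copies of each other, so which of them a probe reads is uncertain. The tested probe of Tcl1b4 read -5.29, -5.20 and -5.43 in WT and -5.90, -5.60 and -6.22 in KO, also without overlap (log2 fold change -0.60, adjusted p = 0.153). The other Tcl1b4 probes and those of Tcl1b1, Tcl1b3 and Tcl1b5 were not tested because they were not well above background on enough arrays. Over the list 11 fold changes were positive and 12 negative, with a median near 0, and 7 of the 23 had an unadjusted p below 0.05. Pdpk1, a kinase gene that acts upstream of AKT, had a log2 fold change of -0.43 (adjusted p = 0.153). Akt1 had one of 0.13 (adjusted p = 0.642).

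Dppa1, another gene of the Dppa naming series, was the 1 call among 8 tested genes of the list of Dppa5a relatives and oocyte KH proteins. Its probe A_55_P2133776 (chr11:46422255-46422314) read -5.35, -4.75 and -4.85 in WT and -6.88, -6.44 and -6.51 in KO, and 0 of the 3 KO arrays were well above background. The probe was tested only because its 3 WT arrays passed the detection filter, so a difference was built into its selection and the call is given as a description. The fitted log2 fold change was -1.63 (SE 0.20, adjusted p = 0.0453), and -1.51 without WT2 (adjusted p = 0.0326). With each KO value raised to the lowest signal well above background on its array, the level in KO was 2.31-fold lower on the processed signal. That floor is taken over all probes, so the value is not a lower bound for this probe. With normexp background correction the fitted log2 fold change was -0.39 (adjusted p = 0.113). The call held under 5 of the 14 alternatives that tested the probe and was lost, among others, when WT3, KO1, KO2 or KO3 was left out, with adjusted p-values from 0.135 to 0.200. Of the 8 genes 2 fold changes were positive and 6 negative, with a median of -0.16 (-0.069 without WT2). Ooep, an oocyte KH protein gene, had a log2 fold change of -0.17 (adjusted p = 0.610).

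**Figure D3:**
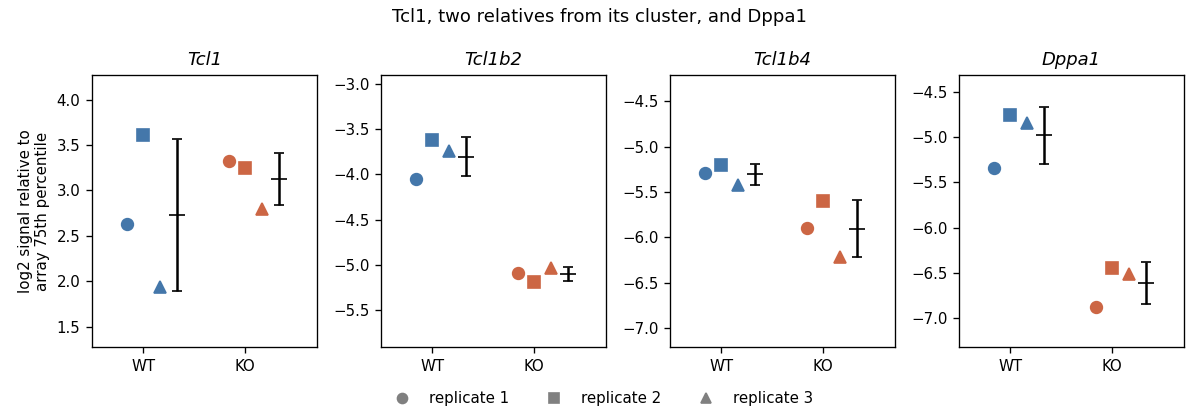
Levels (log2 signal relative to the array's 75th percentile, vertical axis) of Tcl1, its cluster neighbours Tcl1b2 and Tcl1b4, and Dppa1 on the 3 WT and 3 KO arrays, with bars for mean and SD. The WT values of Tcl1 enclose its KO values, whereas the KO values of Tcl1b2, Tcl1b4 and Dppa1 all lie below WT; the KO values of Dppa1 are not well above background.

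Seen together, the 10 genes varied more among WT arrays than among KO arrays. The range over WT exceeded the range over KO at 15 of 15 probes, as it did at 72.7% of all tested probes. The median WT range was 0.97 for the 15 probes and 0.41 for all, and the median KO range was 0.32 and 0.24. WT2 was the lowest WT array at 11 of the 15 probes and the highest at 4, those of Dppa3, Dppa5a, Zfp42 and Tcl1. Over the 10 brightest probes the root mean square difference between WT2 and the KO arrays was 0.19 for KO2, 0.33 for KO3 and 0.41 for KO1. From WT2 to WT1 and WT3 it was 0.93 and 1.09, although these carry the same genotype. WT1 and WT3 differed by 0.37, and pairs of KO arrays by 0.21 to 0.41. For these 10 genes, then, WT2 lay nearer to each KO array than to either WT array. Across all tested probes the SD of the difference from WT2 was 0.523 to 0.585 for the KO arrays and 0.572 to 0.639 for the WT arrays, so that over all probes WT2 did not lie clearly nearer to either genotype.

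**Figure D4:**
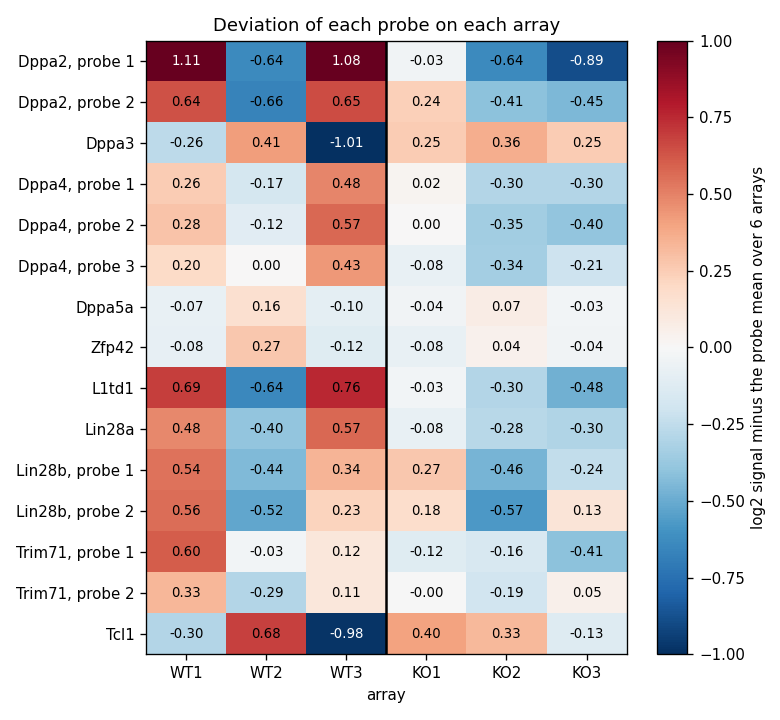
Each probe's log2 signal minus its mean over the 6 arrays (colour and printed value), with arrays in columns and the 15 probes in rows; the line divides WT from KO. Dppa2, L1td1, Lin28a and Lin28b are above their mean in WT1 and WT3 and below it in WT2, and Tcl1 shows the reverse.

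The genes grouped by their course over the 6 arrays, measured as the root mean square difference between levels centred per probe, as a description. The pair with the smallest difference was Dppa5a and Zfp42 at 0.0519, both nearly flat. Dppa4 and Lin28a differed by 0.14, L1td1 and Lin28a by 0.17, and Lin28a and Lin28b by 0.19. Dppa3 and Tcl1 differed by 0.20; both had WT2 highest and WT3 lowest, as did Dppa5a and Zfp42 over a much smaller span. Among 14641 other genes, those nearest to Dppa2 were the amino acid transporter genes Slc7a3 (0.0959) and Slc7a7 (0.103). Slc7a3 read 4.69, 3.02 and 4.75 in WT and 3.83, 2.94 and 2.78 in KO, high in WT1 and WT3 and low in WT2 as Dppa2 was. Ptprcap (0.0576) and Scn2b (0.0596) lay nearest to L1td1, Cnksr2 (0.0588) and Plekhh1 (0.0610) to Dppa3, and Eif1ad (0.0519) and Scml4 (0.0611) to Trim71. For Lin28b they were Aard (0.0673) and H2ac8 (0.0818), and for Tcl1 Cwh43 (0.0886) and Slco4c1 (0.0996). None of these 12 genes was called, with adjusted p-values of 0.168 or more.

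Markers of other cells and states were read beside the 10 genes. Feeder fibroblast markers were detected on all arrays at each of the 34 genes tested, with list means (levels centred per probe) of -0.60, 1.04 and 0.86 in WT1 to WT3 and -0.60, -0.18 and -0.52 in KO. WT1 was thus low and WT2 and WT3 high, an order that differs from that of Dppa2, Lin28a and L1td1, in which WT1 and WT3 were alike; 32 of 34 fold changes were negative, with a median of -0.82 (-1.32 without WT1, -0.56 without WT2) and 0 calls by limma (8 at an unadjusted p below 0.05). Markers of primed pluripotency, the later state of the epiblast, averaged 0.46, -0.32 and 0.29 in WT and 0.03, -0.21 and -0.24 in KO. As for Dppa2, WT2 was the lowest WT array. Genes of DNA methylation and Dppa3 partners, which share Dnmt3a and Dnmt3b with the primed list, averaged 0.24, -0.11 and 0.23 in WT and -0.06, -0.13 and -0.17 in KO. The 2-cell gene list averaged 0.61, -0.76 and -0.51 in WT and 0.30, 0.04 and 0.32 in KO, with WT1 high. The part of any of these in the values of the 10 genes was not tested.

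Of the 18 primed markers 0 were called by limma and 3 had an unadjusted p below 0.05. Their median fold change was -0.24, with 11 negative and 7 positive, and without WT2 the median was -0.57. Etv5, an ETS factor gene, read 5.70, 5.16 and 5.54 in WT and 5.0003, 4.72 and 4.73 in KO (log2 fold change -0.65, adjusted p = 0.134), and Grhl2, an epithelial factor gene, had a fold change of -0.77 (adjusted p = 0.119). Pou3f1 and Dnmt3l were chosen after their values were seen, so they do not speak for a list. Pou3f1, an epiblast factor gene of the primed list, read 1.88, -0.25 and 1.94 in WT and 0.61, 0.14 and 0.39 in KO. Dnmt3l, a methyltransferase cofactor gene, is not in the primed list but in the DNA methylation and other stem cell marker lists. It read 4.53, 2.59 and 4.68 in WT and 3.16, 3.40 and 3.09 in KO. Both were high in WT1 and WT3 and lowest in WT2. Lef1, a Wnt pathway factor gene picked the same way, read 2.55, -0.35 and 2.08 in WT and 1.59, 1.42 and 1.57 in KO, so for it WT2 lay far below the KO arrays. The other stem cell markers, 26 genes, held 0 calls by limma (6 at an unadjusted p below 0.05), with 13 fold changes in each direction and a median of 0.04. Endoderm markers had a median fold change of 0.47 over 16 genes, also with 0 calls by limma. At an unadjusted p below 0.05, 7 were higher and 2 lower (56.3%), against 21.7% of all genes. The KO values lay wholly above WT at 7 of the 16 and wholly below at 1, against 2551 and 3358 of 20434 genes. The 2 lower were Sox7 (log2 fold change -1.25, adjusted p = 0.0720) and Dab2 (-1.22, adjusted p = 0.0770, no WT1 value). Mesoderm markers had a median of 0.59 over 7 genes with 0 calls (1 at an unadjusted p below 0.05). Neuroectoderm and trophoblast markers had medians of 0.11 and 0.085 (-0.18 and 0.19 without WT2). They had 0 calls among 14 and 11 genes (6 and 3 at an unadjusted p below 0.05).

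**Figure D5:**
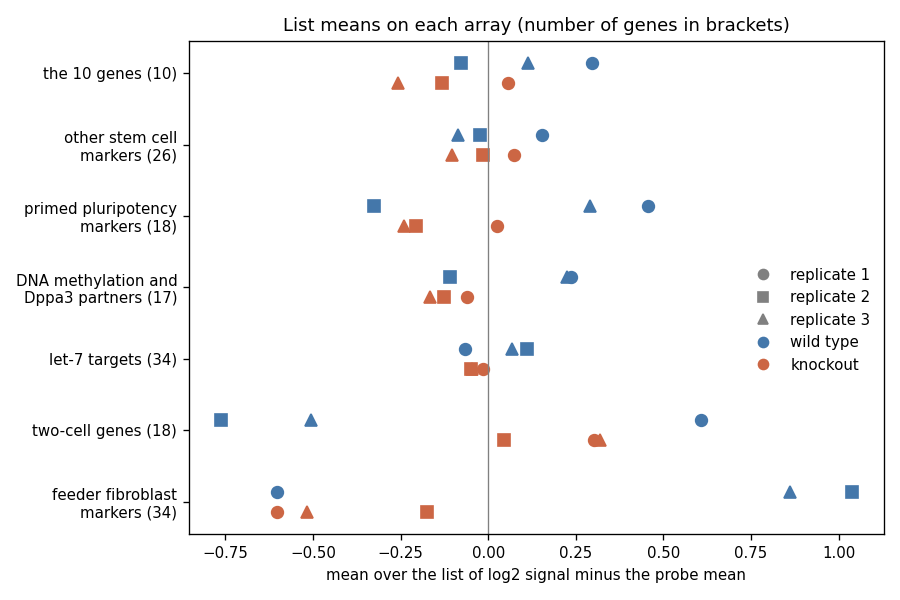
Mean over each gene list of the log2 signal minus the probe's mean (horizontal axis) on each array; colour gives the genotype, symbol the replicate number and brackets the number of genes. WT2 lies below the KO arrays in the primed list and among them in the DNA methylation list, whereas in the feeder list WT1 lies beside KO1 and WT2 is the highest array.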

How the data were processed

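Per the file headers, the deposited scanner tables hold spot intensity from Agilent Feature Extraction 10.7.3.1, background-subtracted and detrended, with positions on mm9; version 10.3.1.1 is given in the submitters' processing notes, and which applied was not settled. The authors' deposited series table holds log2 values centred per gene (r 0.986 to 0.996 with the scanner values, column medians -0.07 to 0.03; its exact scaling is unknown) and served as an alternative. From the intensity, 39429 probes of 43020 spots were taken as log2 signal minus the array's 75th percentile, outlier spots left out and repeated spots averaged. The 26651 probes well above background on at least 3 of 6 arrays (67.6%) were fitted with limma 3.58.1 in R 4.3.3, KO against WT, and p-values adjusted by Benjamini-Hochberg; depth does not apply to arrays, and the number of arrays limits the precision. Between 25371 and 27754 probes per array were well above background. On simulated data, 55 of 100 probes changed by 1 log2 unit and 90 of 100 changed by 2 were called, with 8 false calls. A gene is represented by its brightest tested probe. Symbols were updated through RefSeq accessions. The members and the gene lists were chosen with earlier results of these data known. Named genes are all members, list genes that were called, otherwise up to 3 per list with the smallest p, and the 2 genes nearest in profile to each member that spanned over 1 log2 unit; others were named for their known role. Groups come from the sample titles. The alternatives were 15 changes of background correction, scaling, filter, weights, variance prior, source table, replicate block and arrays left out.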

Additional observations from a re-analysis of the deposited data

How the results depend on the processing

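Over the 15 alternatives, 0 of 15 probes of the 10 genes were called in either direction in each except the one without WT2, in which 3 were called lower (0 to 3 over the arrays left out). The number of probes with an unadjusted p below 0.05 among the 15 ranged from 0 to 10. Over all tested probes, 33 were called higher and 91 lower. Counts were 54 and 177 with a shift to the median, 50 higher with quantile normalization, and 434 and 406 with array weights. They were 0 and 0 by limma with normexp (5785 probes at an unadjusted p below 0.05), with no detection filter (6514), with detection on all 6 arrays (5458), with a trended and robust variance prior (6199) and with the replicate number as a block (5153). Leaving out 1 array gave 0 to 1409 higher and 0 to 1148 lower. The cause of these moves was not tested. The direction turned for Dppa5a (-0.048 with the median shift; -0.040 to 0.088 over the arrays left out) and Zfp42 (0.047 with quantile normalization, 0.049 with array weights; -0.12 to 0.076 over the arrays left out). It also turned, over the arrays left out, for Lin28b probe 2 (-0.48 to 0.067) and Trim71 probe 2 (-0.27 to 0.039). Of the fold changes of single probes, 236 kept direction and side of the threshold, 10 turned, 5 became and 18 ceased to be calls. The 18 were of Dppa1, called under 5 of 14 alternatives that tested it, and Tcl1b2, called under 6 of 15; with normexp their fold changes were -0.39 and -0.55.

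Same-numbered WT and KO arrays had deviations from the group means that correlated at 0.16, 0.23 and -0.14 across probes, and WT3 correlated best with KO1 (0.21), so the numbers were not taken to pair the samples. With the replicate block, 2 of the 15 probes had an unadjusted p below 0.05 and 0 were called. A fit with slide as a block could not be fitted, since 0 of 2 slides held both genotypes. Lin28b probe 2 reads near background (lowest signal 42.3), where array values are least precise.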
